A study of Homo sapiens with 12 samples.

Results

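The 6 arrays titled replicate 1 were compared with the 6 titled replicate 2, which are all 12 arrays of the series, and are called set 1 and set 2 here. RNA came from 2 established lines, RS4:11 and SEM-K2, grown from acute lymphoblastic leukaemias that carry a fusion of KMT2A (MLL) with AFF1 (AF4). Each line had been exposed for 6 h to vehicle, to obatoclax at the EC50 of a 72 h assay, or to obatoclax at 3 times that concentration (3xEC50). Obatoclax is a small molecule made to bind the antiapoptotic proteins of the BCL2 family. All cells had been plated 24 h before exposure. Each of the 6 groups therefore holds 1 array of each set, and the 6 groups give 6 pairs of arrays alike in line and dose. The labels call the replicates biologic but do not say what a replicate number stands for, so passage, day of culture, RNA extraction, labelling and array run cannot be told apart. The p-values measure the spread between these 12 arrays. The array titles do not say whether the 3 arrays of a line and set shared a culture. The p-values therefore need not measure the spread between cultures.

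Some of the gene groups described below are often read as signs of the state of a culture, which was not tested here as a cause. When oxygen is short, the transcription factors HIF1A and EPAS1 are no longer degraded and switch on glucose transporters, glycolytic enzymes, mitophagy receptors and the vascular growth factor VEGFA. Dividing cells make the proteins of DNA replication before and during S phase, and those of the spindle and of mitosis in G2 and M. Growing cells make more of the machinery that assembles ribosomes, while cells leaving the cycle raise inhibitors such as CDKN1B under FOXO factors. These statements are background and were not measured here as oxygen, cell cycle phase or growth.

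Values are log2 GCRMA levels of 1 probe set per gene. A level under 4 was read as not above the floor, and 10561 genes above 4 on at least 2 arrays were tested. Differences are set 2 minus set 1 on the log2 scale ± the standard error (SE) from limma, over 6 pairs unless a line is named, and a gene was called at a Benjamini-Hochberg adjusted p under 0.05 over all genes tested. Of 23 B cell precursor markers on the array, 22 had a mean above 4 and MME was below 4 on every array. Of 19 myeloid markers 15, of 20 T and NK cell markers 16, of 12 erythroid and megakaryocyte markers 10 and of 15 fibroblast and epithelial markers 11 were below 4 on all 12 arrays, among them MPO, LYZ, CD3E, HBB and EPCAM. The mean level of the myeloid list lay between 2.89 and 3.21 in set 1 and between 2.89 and 3.17 in set 2. That of the T and NK list lay between 3.87 and 4.04 in set 1 and between 3.77 and 4.05 in set 2.

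Between the sets 1300 of 10561 genes (12.3%) were called, 814 (7.71%) lower and 486 (4.60%) higher in set 2. The larger differences were mostly on one side, since 50 called genes were at least 1 log2 unit lower in set 2 and 3 at least 1 unit higher. Of the 1300 genes, 1183 differed in the same direction in all 6 pairs, as did 2296 of all genes tested. The median over all genes was -0.02. Centring each array on its median raised the share of calls that were higher in set 2 from 37.4% to 50.5%, with 1532 calls, and the median of all genes was -0.10 in the SEM-K2 vehicle pair while those of the other 5 pairs lay between -0.04 and 0.02. The count was lower without some arrays, and it ran from 463 without either RS4:11 vehicle array to 1281 without either SEM-K2 vehicle array. It was 504 without an RS4:11 EC50 array, 537 without an RS4:11 3xEC50 array and 729 without a SEM-K2 3xEC50 array. All 1300 genes kept their direction in each of these fits, but they were chosen on the same pairs, which left little room for a change. With only the 4 vehicle arrays 8 genes were called, namely TMEM45A, PFKFB4, TNS1, ID2, TMEM71 and FGFBP2 lower and ZNF595 and XNDC1N higher in set 2.

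Over all genes together the cell line took up far more of the variance than the set. Gene by gene the gap was smaller, with median shares of 33.7% for line, 18.3% for dose within line and 8.62% for set. In 3491 of the 10561 genes the set held more than line. Summed over the genes tested, line held 80.5% of the sum of squares, dose within line 7.58%, set 5.62%, set by line 1.96% and the remainder 4.33%. The set, with 1 degree of freedom against 4 for dose, held more than dose in 3740 genes, and more than both line and dose in 1948. TNS1 had 86.6% with set. The mitotic kinesin KIF20A was another such gene, for which set held 74.1%, line 6.36% and dose 5.66%. CAD, the enzyme that starts pyrimidine synthesis, had 82.2% with set and 0.222% with line. In TMEM45A set held 76.3% and line 22.6%, and in BNIP3L, higher in SEM-K2 on every array, line held 57.0% and set 38.6%. These shares describe genes chosen in part by the same set term and were not tested.

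Genes of the hypoxia response were among the largest differences and were lower in set 2. TMEM45A, a membrane protein gene and the most clearly separated of all genes tested, had levels of 5.94, 5.96 and 6.34 in RS4:11 and 7.85, 7.94 and 7.69 in SEM-K2 in set 1, in the order vehicle, EC50 and 3xEC50. In set 2 the same groups had 2.07, 2.78 and 2.38 in RS4:11, all under the floor, and 4.36, 4.70 and 4.38 in SEM-K2. No set 2 array reached any set 1 array, in either line. The difference was -3.51 ± 0.12 (limma adjusted p = 4.86e-06), or -2.95 when the set 2 mean is raised to the floor.

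PFKFB4, an enzyme that makes the activator of phosphofructokinase and is a known target of HIF1A, had 7.25, 7.51 and 7.12 in RS4:11 and 8.999, 9.32 and 9.33 in SEM-K2 in set 1. In set 2 it had 3.84, 4.72 and 3.90 in RS4:11 and 6.33, 7.20 and 7.67 in SEM-K2. Within each line the sets did not overlap, while the SEM-K2 arrays of set 2 overlapped the RS4:11 arrays of set 1. The difference was -2.65 ± 0.21, a 6.26-fold lower level (limma adjusted p = 0.000898). The other probe set of PFKFB4 above the floor gave -0.69, so the size depends on the probe set. MIR210HG, the host transcript of the hypoxia-induced microRNA miR-210, differed by -2.35 ± 0.25 (limma adjusted p = 0.00336), and by -1.37 on its other probe set. Its levels in set 1 were 5.78, 6.57 and 6.58 in RS4:11 and 7.37, 7.88 and 7.78 in SEM-K2, and in set 2 they were 2.20, 3.52 and 4.48, and 5.38, 6.25 and 6.00. The mature microRNA itself is not measured by this array, and its sequence in RefSeq is shown to identify the product of the transcript, with the seed (bases 2 to 8) in capitals.

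hsa-miR-210-3p: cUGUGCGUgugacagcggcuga

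**Figure D1:**
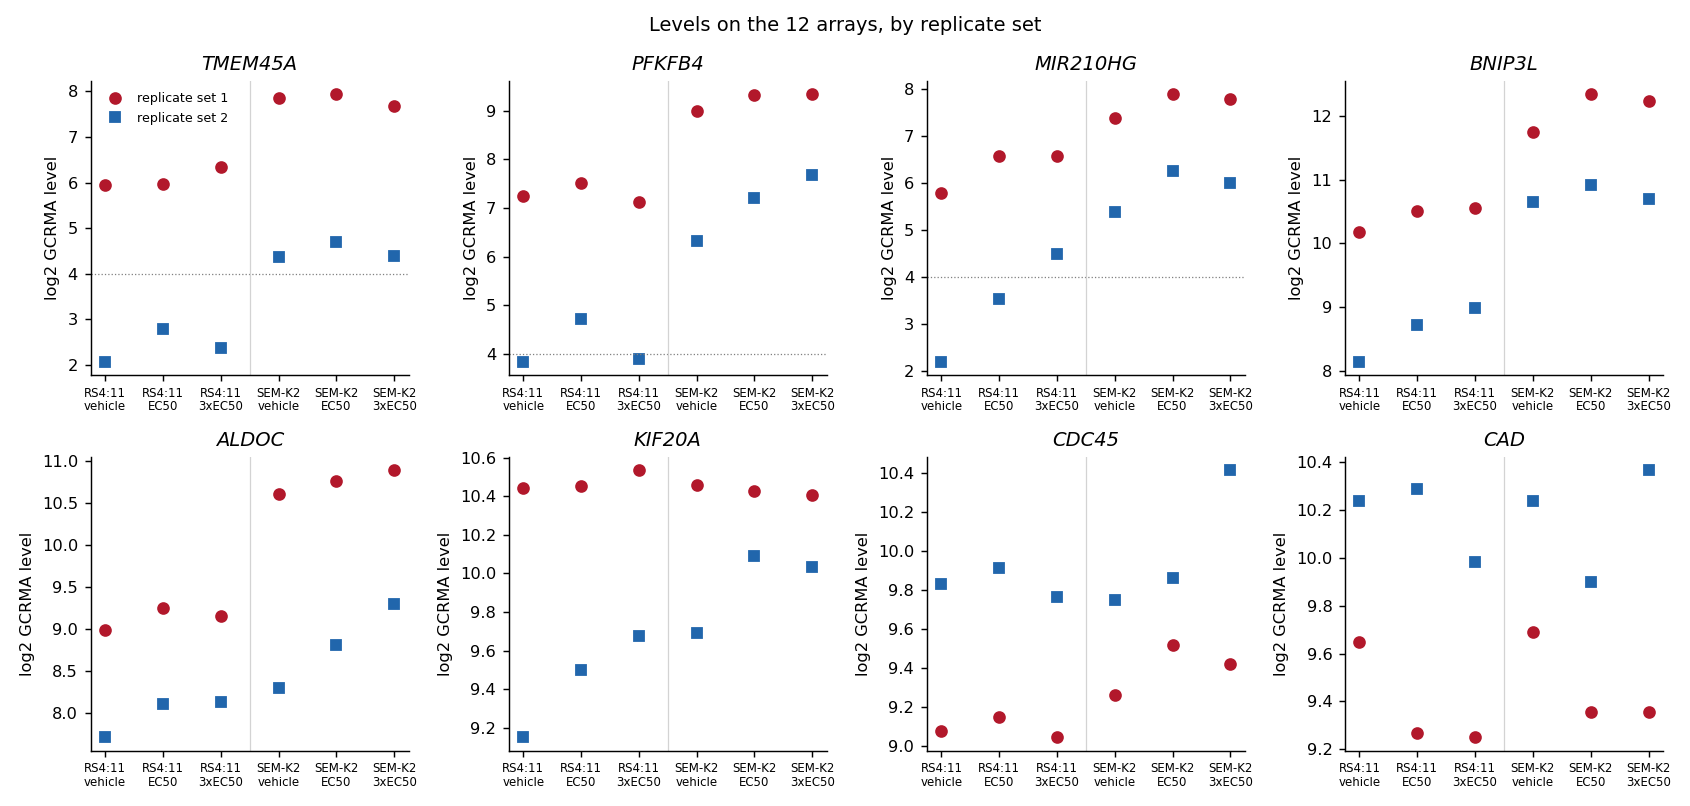
Log2 GCRMA level (y axis) of 8 genes on the 12 arrays, by line and dose (x axis), with set 1 as red circles and set 2 as blue squares; the dotted line, drawn where a gene has values near it, is the floor of 4. TMEM45A, PFKFB4, MIR210HG, BNIP3L, ALDOC and KIF20A were lower in set 2 in all 6 pairs, and CDC45 and CAD were higher in all 6.

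Of 29 genes tested of the list of glycolysis and hypoxia genes, 13 were called lower and 0 higher in set 2, against 7.71% and 4.60% of all genes, and the list's median was -0.67 against -0.02. All 13 differed in the same direction in all 6 pairs. The shift of the list was uneven between the lines. Its median was -0.19 in RS4:11, with 12 genes called lower, and -0.77 in SEM-K2, with 17 called lower. BNIP3L, a receptor that marks mitochondria for removal, differed by -1.58 ± 0.12 (limma adjusted p = 0.000703) and ALDOC, an aldolase isoform, by -1.55 ± 0.17. VEGFA differed by -1.45 ± 0.22 (limma adjusted p = 0.00828), with -2.00 in RS4:11 and -0.90 in SEM-K2. The 3 other probe sets of VEGFA gave -0.90 to -0.46 over the 6 pairs. The collagen prolyl hydroxylase P4HA1 differed by -1.02 ± 0.08, ANKRD37 by -1.13 ± 0.13, PFKFB3 by -0.98 ± 0.13 and the histone demethylase KDM3A by -0.92 ± 0.11. The glucose transporters SLC2A3 and SLC2A1 differed by -0.84 ± 0.10 and -0.83 ± 0.11, PDK1, which holds pyruvate back from the mitochondria, by -0.84 ± 0.09, and the first enzyme of glycolysis, HK2, by -0.59 ± 0.08. MXI1, an antagonist of MYC, was the last of the 13, at -0.67 ± 0.16.

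The abundant enzymes of glycolysis in the same list were not called. GAPDH differed by -0.07 ± 0.07 (limma adjusted p = 0.529), ENO1 by -0.03 ± 0.08, PGK1 by -0.23 ± 0.09 and LDHA by -0.19 ± 0.07 (limma adjusted p = 0.0844). The mRNA of HIF1A, whose protein is controlled by its breakdown, differed by -0.12 ± 0.09 (limma adjusted p = 0.383). DDIT4, an inhibitor of mTOR that both hypoxia and the integrated stress response induce, differed by -1.29 ± 0.09 (limma adjusted p = 0.000688). Without any 1 array 12 or 13 of the 29 genes were called lower, so this count did not rest on 1 pair.

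Promoters were searched for the letters ACGTG, a form of the core that HIF factors bind, on either strand. The search covered the 300 bases from 250 before to 50 after each RefSeq start (GRCh38.p14), and other forms of the core were not searched. Of the 13 genes called lower 10 had a promoter sequence and 4 of these held the letters (40.0%), namely HK2, ALDOC, P4HA1 and ANKRD37. The letters were in 12 of 25 promoters of the whole list (48.0%), in 27.65% of those of all genes tested, and in 28.04% of those of all genes called lower in set 2. Members that were not called, such as GAPDH, PGK1 and LDHA, held the letters too. The 250 bases before the start are shown, 5′ to 3′, for the 3 matching genes with the smallest p, with the letters on either strand in capitals. In ALDOC and in ANKRD37 the longer run in capitals, CACGTG, holds a match on each strand.

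P4HA1, chr10:73096867-73097116, minus strand: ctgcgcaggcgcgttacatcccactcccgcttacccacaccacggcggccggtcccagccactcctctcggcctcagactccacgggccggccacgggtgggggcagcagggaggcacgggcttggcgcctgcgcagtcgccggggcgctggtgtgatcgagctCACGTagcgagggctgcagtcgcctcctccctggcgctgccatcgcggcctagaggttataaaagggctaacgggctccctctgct

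ALDOC, chr17:28576896-28577145, minus strand: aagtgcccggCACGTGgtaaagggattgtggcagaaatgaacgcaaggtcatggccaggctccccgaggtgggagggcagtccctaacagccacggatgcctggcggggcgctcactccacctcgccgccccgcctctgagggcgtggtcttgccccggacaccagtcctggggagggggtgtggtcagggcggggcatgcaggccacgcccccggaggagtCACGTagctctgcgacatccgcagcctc

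ANKRD37, chr4:185396591-185396840, plus strand: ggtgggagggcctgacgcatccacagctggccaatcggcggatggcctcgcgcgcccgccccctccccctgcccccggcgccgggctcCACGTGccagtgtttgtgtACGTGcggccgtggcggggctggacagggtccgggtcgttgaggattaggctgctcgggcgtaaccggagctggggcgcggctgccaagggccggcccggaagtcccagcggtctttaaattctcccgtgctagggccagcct

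Several other genes with large differences were lower in set 2 in all 6 pairs and belonged to none of the lists. TNS1, a linker between integrins and actin, had 4.98 to 7.04 in set 1 and 2.81 to 3.94 in set 2, all under the floor, and differed by -2.68 ± 0.15 (limma adjusted p = 0.000144), or -2.29 with the set 2 mean raised to 4. ID2, an inhibitor of basic helix-loop-helix factors, differed by -1.82 ± 0.18, and by -0.75 on its other probe set. TMEM71 differed by -1.96 ± 0.17, LSP1, an actin-binding protein of leukocytes, by -1.62 ± 0.19, and ZNF436, a zinc finger gene, by -1.41 ± 0.11 (limma adjusted p = 0.000898). TMEM71 was under the floor on the SEM-K2 arrays of set 2, at 2.48, 3.50 and 3.56. Its difference is thus partly against background. FGFBP2 differed by -1.88 ± 0.23, or -1.66 with the floor.

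Genes of G2 and mitosis were also lower in set 2. Of 31 genes tested 17 were called lower and 0 higher, against 7.71% and 4.60% of all genes. All 31 were below 0, against 53.7% of all genes, and the list's median was -0.41. KIF20A had 10.44, 10.46 and 10.54 in RS4:11 and 10.46, 10.43 and 10.41 in SEM-K2 in set 1, where the 6 arrays spanned little. In set 2 it had 9.15, 9.50 and 9.68 in RS4:11 and 9.69, 10.09 and 10.03 in SEM-K2. Every set 2 array lay below every set 1 array, and the difference was -0.76 ± 0.13 (limma adjusted p = 0.0121). HMMR, a spindle protein, differed by -0.75 ± 0.12, CDC25C, the phosphatase that starts mitosis, by -0.55 ± 0.07, cyclin B1 (CCNB1) by -0.68 ± 0.15, the kinase AURKA by -0.70 ± 0.17 and DLGAP5 by -0.76 ± 0.15.

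In RS4:11 the list had a median of -0.65 with 20 genes called lower, and in SEM-K2 a median of -0.24 with 1 gene called lower. No member was called for the difference between the lines (limma), and for CCNB1 the adjusted p of that difference was 0.311. The median ran from -0.83 in the RS4:11 vehicle pair to -0.11 in the SEM-K2 3xEC50 pair. The count of 17 was 5 without either RS4:11 vehicle or EC50 array and 4 without an RS4:11 3xEC50 array. In these fits the list's median stayed between -0.36 and -0.41.

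Of the 17 mitotic genes called lower, 14 had a promoter sequence, and 8 of these (57.1%) held the letters TTTGAA on either strand, the cell cycle homology region through which G1 complexes repress such genes. Among all mitotic genes tested it was 16 of 26 (61.5%), among all genes tested 9.81% and among all genes called lower 14.3%. None of 11 promoters of the S phase genes called higher held it. HMMR and KIF23 (-0.65) are shown, the 2 matching genes with the smallest p, over the 250 bases before the start and with the letters in capitals.

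HMMR, chr5:163460382-163460631, plus strand: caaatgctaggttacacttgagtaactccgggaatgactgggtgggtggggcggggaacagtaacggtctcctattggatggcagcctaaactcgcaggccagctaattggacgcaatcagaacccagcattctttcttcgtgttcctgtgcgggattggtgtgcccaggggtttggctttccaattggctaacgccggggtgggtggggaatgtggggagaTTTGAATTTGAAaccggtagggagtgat

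KIF23, chr15:69414099-69414348, plus strand: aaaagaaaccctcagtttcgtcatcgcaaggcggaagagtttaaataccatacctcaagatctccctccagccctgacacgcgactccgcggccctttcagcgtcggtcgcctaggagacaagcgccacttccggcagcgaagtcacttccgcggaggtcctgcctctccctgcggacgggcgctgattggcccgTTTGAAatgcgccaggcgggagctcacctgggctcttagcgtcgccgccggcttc

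Genes of DNA replication went the other way. Of 33 genes tested, 12 were called higher and 1 lower in set 2, against 4.60% and 7.71% of all genes. The list's median was 0.23 and lay between 0.15 and 0.30 in the 6 pairs. CDC45, which unwinds DNA together with the MCM and GINS proteins, had 9.07, 9.15 and 9.04 in RS4:11 and 9.26, 9.52 and 9.42 in SEM-K2 in set 1, and 9.83, 9.91 and 9.76, and 9.75, 9.86 and 10.42, in set 2. The sets did not overlap over all 12 arrays and differed by 0.68 ± 0.10 (limma adjusted p = 0.0071). Cyclin E1 (CCNE1), which drives entry into S phase, differed by 0.79 ± 0.14, and the helicase genes MCM5, MCM3, MCM2, MCM6 and MCM7 by 0.54 ± 0.11, 0.47 ± 0.08, 0.42 ± 0.11, 0.42 ± 0.08 and 0.37 ± 0.07. Their activator E2F1 differed by 0.39 ± 0.10. The exception was the licensing factor CDT1, whose product is abundant in G1, at -0.37 ± 0.09 (limma adjusted p = 0.0303). Without 1 array the count of 12 lay between 4 (without an RS4:11 3xEC50 array) and 11, with 5 without an RS4:11 vehicle array and 7 without an RS4:11 EC50 array.

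Histone genes of S phase did not follow the replication genes. Of 10 tested 5 were called lower, against 7.71% of all genes, and 0 higher, with a median of -0.51. H2BC9 differed by -0.95 ± 0.12 (limma adjusted p = 0.00564). Most of their mRNA lacks a poly(A) tail, and histone probe sets can read near-identical copies, so these values are uncertain. Leaving out 1 array gave 2 or 3 called histone genes. Of 19 quiescence genes and FOXO targets, 8 (42.1%, against 7.71% of all genes) were called lower and 0 higher, with a median of -0.29. They included the cell cycle inhibitors CDKN2D at -0.78 ± 0.10 and CDKN1B at -0.35 ± 0.09, the atypical cyclin CCNG2 at -0.88 ± 0.11, and YPEL3 at -1.20 ± 0.20. The quiescence count was 3 to 5 without an RS4:11, SEM-K2 EC50 or SEM-K2 3xEC50 array.

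Some genes of ribosome assembly and of the proteasome were higher in set 2, by less than the hypoxia genes were lower. Of 27 ribosome biogenesis genes tested 9 were called higher and 0 lower, against 4.60% and 7.71% of all genes, with a median of 0.24. Those called included RRP12 at 0.71 ± 0.08 (limma adjusted p = 0.00385), UTP20 at 0.61 ± 0.10 and NOLC1 at 0.36 ± 0.07. Of 27 proteasome subunits 7 (25.9%, against 4.60% of all genes) were called higher and 0 lower, with a median of 0.23. Those called were led by PSMD1 at 0.73 ± 0.09, PSMD2 at 0.46 ± 0.08 and PSMB6 at 0.44 ± 0.08. Of the 3 other probe sets of RRP12, 1 had the same sign.

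CAD, the first enzyme of pyrimidine synthesis, had 9.65, 9.27 and 9.25 in RS4:11 and 9.69, 9.36 and 9.36 in SEM-K2 in set 1, and 10.24, 10.29 and 9.98, and 10.24, 9.90 and 10.37, in set 2. The sets did not overlap, and the difference was 0.74 ± 0.09 (limma adjusted p = 0.00542). ATP5MC1, a subunit of the ATP synthase, differed by 0.72 ± 0.10 as the only one of 37 oxidative phosphorylation genes to be called. CLUH, which binds mRNAs of mitochondrial proteins, differed by 0.87 ± 0.09, and by 0.16 on its other probe set. Of 51 ribosomal proteins 0 were called (limma; 4 at an unadjusted p under 0.05), with a median of -0.01 and a range from -0.27 to 0.20. MYC mRNA differed by 0.17 ± 0.09 (limma adjusted p = 0.228). The count of 9 ribosome biogenesis genes was 2 without an RS4:11 vehicle array, 3 without an RS4:11 EC50, RS4:11 3xEC50 or SEM-K2 EC50 array, 4 without a SEM-K2 3xEC50 array and 10 without a SEM-K2 vehicle array. The count of 7 proteasome genes was 3 without an RS4:11 vehicle array and 4 without an RS4:11 EC50 or 3xEC50 array.

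**Figure D2:**
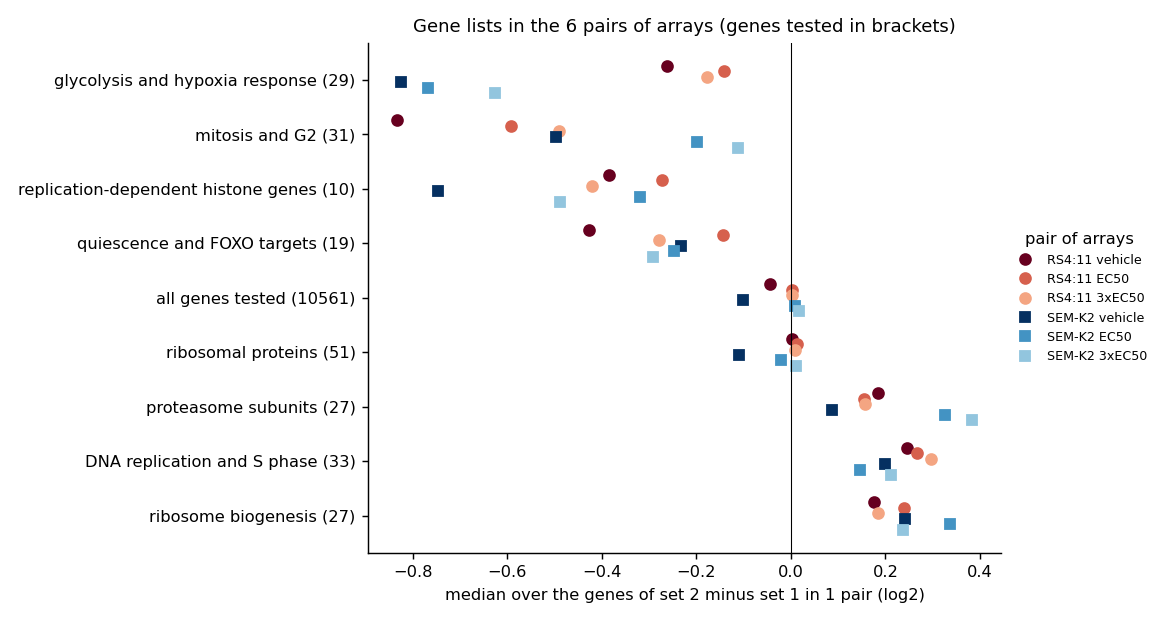
Median of set 2 minus set 1 (x axis, log2) over the genes tested of 9 groups (y axis, number of genes in brackets) in each of the 6 pairs, RS4:11 as circles and SEM-K2 as squares. The hypoxia, mitosis, histone and quiescence lists lie below 0 and the proteasome, S phase and ribosome biogenesis lists above 0 in all 6 pairs; ribosomal proteins and all genes lie near 0, except in the SEM-K2 vehicle pair at -0.11 and -0.10.

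The gene with the largest difference upward was ZNF595, a zinc finger gene, with 4.74 to 5.95 in set 1 and 6.23 to 8.66 in set 2, a difference of 1.83 ± 0.26 (limma adjusted p = 0.00729). TMEFF2 differed by 1.00 ± 0.20, COLCA1 by 0.93 ± 0.12, CPNE7 by 0.89 ± 0.15 and the dynein DNAH3 by 0.86 ± 0.10. COLCA1 and DNAH3 were each read by an _x_at probe set, a type that can also read similar transcripts, with no other probe set above the floor. GDAP1, ABHD5, SLC16A10 and LTB4R, between 0.75 and 0.81, completed the 15 largest among called genes with the same sign in all 6 pairs. XNDC1N was larger, at 1.08 ± 0.23, with the same sign in 5 pairs. Other probe sets of GDAP1, ABHD5, SLC16A10 and LTB4R gave smaller rises, between 0.16 and 0.49. In TMEFF2 the SEM-K2 EC50 pair differed by 0.08 and the SEM-K2 3xEC50 pair by 1.94, so its size was uneven.

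Of 14 cholesterol genes 5 were called lower and 0 higher in set 2 (median -0.32). Of 10 fatty acid genes 3 were called lower and 0 higher (median -0.25). Over all genes 7.71% were called lower and 4.60% higher. ACACA, the first enzyme of fatty acid synthesis, had 0.29 ± 0.08 and FASN 0.10 ± 0.16, and neither was called. INSIG1, which restrains the sterol sensor, differed by -0.54 ± 0.08, HMGCS1 by -0.41 ± 0.08, the regulator SREBF1 by -0.60 ± 0.09 and the desaturase SCD by -0.55 ± 0.08. The other probe set of SREBF1 gave -0.09. MVK, an early enzyme of the mevalonate pathway, differed by -1.23 ± 0.22, with its largest pairs, -1.61 and -2.43, in RS4:11 EC50 and SEM-K2 3xEC50, where the poly(A) controls also differed most. Its 2 other probe sets gave -0.34 and -0.13, and it differed by -0.46 with the control level as a covariate.

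Of 29 integrated stress response genes 4 (13.8%, against 7.71% of all genes) were called lower and 0 higher (median -0.14). These were DDIT4, SLC7A11 (-0.76 ± 0.17), ATF4 (-0.35 ± 0.08) and VLDLR. The count was 1 without any 1 RS4:11 array, 2 without a SEM-K2 EC50 array and 5 without a SEM-K2 vehicle array, and SLC7A11 and ATF4 lost their calls in 8 and 6 of the 12 fits without 1 array.

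B cell precursor markers had 7 of 22 genes called lower and 1 higher, against 7.71% and 4.60% of all genes (median of the list -0.30). CD79A of the B cell receptor complex differed by -0.51 ± 0.10, CD9 by -0.51 ± 0.10, and the terminal transferase DNTT, near the floor in SEM-K2, by -1.74 in RS4:11 and -0.42 in SEM-K2. VPREB3 was the gene called higher, at 0.68 ± 0.11. Without 1 array 0 to 5 of the markers were called lower. Of 29 interferon-stimulated genes 4 were called lower (13.8%, against 7.71% of all genes) and 0 higher. The list's median was -0.12, with -0.03 in RS4:11 and -0.18 in SEM-K2. The called genes were led by XAF1 (-0.60 ± 0.09), IFIT3 (-0.73 ± 0.12) and IFIT2 (-0.48 ± 0.09). Of 17 immediate early genes 3 were called lower, DUSP6 (-0.71 ± 0.11), IER5 (-0.43 ± 0.10) and EGR1 (-0.95 ± 0.24), which is 17.6% against 7.71% of all genes. That count was 1 without an RS4:11 vehicle, RS4:11 EC50, SEM-K2 vehicle or SEM-K2 3xEC50 array and 2 without a SEM-K2 EC50 array, and EGR1 and IER5 lost their calls in 10 and 8 of the 12 fits. Of the markers of other cells, NKG7 (-0.83 ± 0.15) and PDGFRB (-0.62 ± 0.13) were called lower.

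Other lists had 1 to 3 called genes each, against 7.71% of all genes lower and 4.60% higher. Genes were called lower in 2 of 10 NF-kappaB targets, 2 of 11 NRF2 targets, 1 of 6 glucose sensing genes and 2 of 13 circadian clock genes (BHLHE41 and DBP), and 2 of 11 glucocorticoid-responsive genes were called lower with 1 higher. Shares near those of all genes were seen in splicing and nuclear RNAs (2 of 20 lower), TOP mRNAs (1 of 13 lower), MLL fusion targets (1 of 16 lower, LMO2 at -0.56 ± 0.11), lysosome genes (2 of 36 lower), antigen presentation genes (1 of 19 lower), p53 targets (1 of 18 each way) and endoplasmic reticulum chaperones (1 of 20 each way). Heat shock genes had 2 of 14 called higher, HSP90AB1 and STIP1. Of 17 tRNA synthetases FARSB (0.65 ± 0.09) and VARS1 (0.52 ± 0.11) were called higher, but their direction depends on the probe set. The other probe set of VARS1 gave -0.86 and the mean of its probe sets -0.17, and 1 of the 2 others of FARSB gave -0.60. Limma called 0 of 9 metallothionein and zinc genes and 0 of 18 actin and SRF genes, with 2 and 3 at an unadjusted p under 0.05. KMT2A itself, whose probe sets can read both the normal gene and the fusion, differed by 0.33 ± 0.09 (limma adjusted p = 0.0433) and AFF1 by -0.11 ± 0.09 (limma adjusted p = 0.411).

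The sets were then compared within each line. In RS4:11 208 genes (1.97%) were called higher and 524 (4.96%) lower in set 2, and in SEM-K2 71 (0.672%) higher and 325 (3.08%) lower. Of the 732 genes called in RS4:11, 648 (88.5%) had the same sign in SEM-K2, where those chosen as lower had a median of -0.30 and those chosen as higher 0.31. Of the 396 called in SEM-K2, 332 (83.8%) had the same sign in RS4:11, with medians of -0.36 and 0.31. Genes called in the same direction in both lines numbered 118, 16.1% of the RS4:11 genes and 29.8% of the SEM-K2 genes. The 2 lines share no array, and 53.7% of all genes were below 0. Across the 10561 genes the differences of pairs correlated with r between 0.35 and 0.60 within a line and between 0.19 and 0.40 between lines. Genes are not independent replicates, so these correlations are a description. Counts within a line depended on single arrays. The RS4:11 count was 35 without an RS4:11 EC50 array, 98 without an RS4:11 vehicle array, 112 without an RS4:11 3xEC50 array and 384 without a SEM-K2 EC50 array. The SEM-K2 count was between 120 (without a SEM-K2 3xEC50 array) and 248 (without an RS4:11 vehicle array), with 141 without a SEM-K2 vehicle array.

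**Figure D3:**
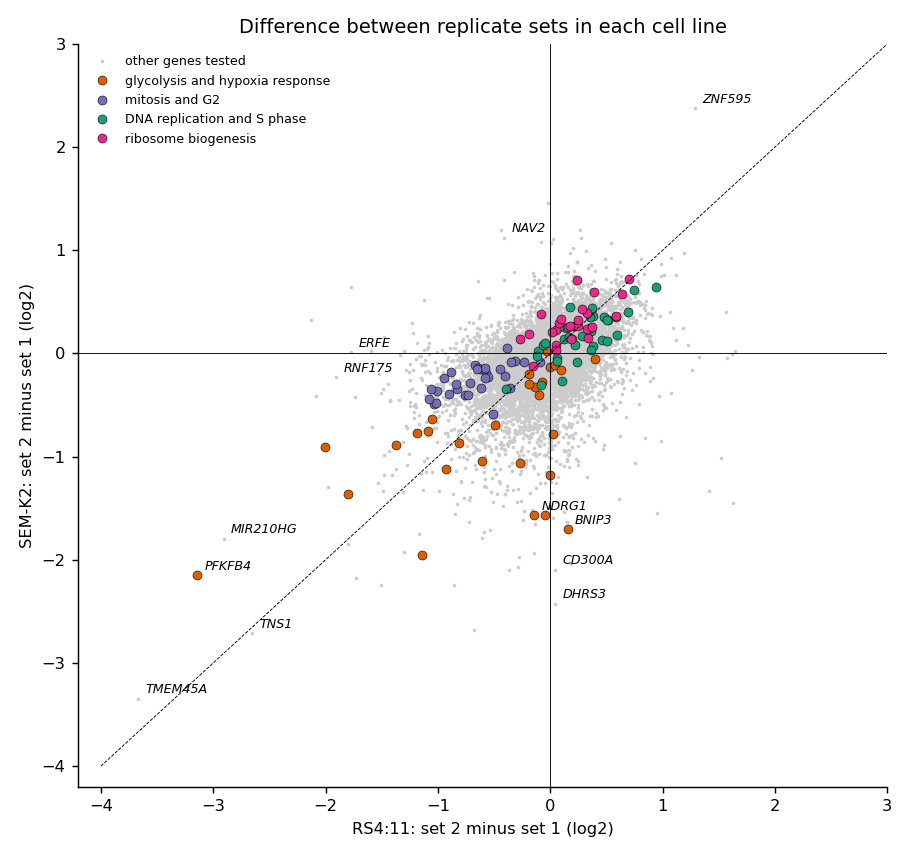
Set 2 minus set 1 in RS4:11 (x axis) against SEM-K2 (y axis), log2, for the 10561 genes tested, with 4 gene lists in colour and the dashed line at equal differences. TMEM45A, TNS1, PFKFB4 and MIR210HG lie far in the lower left, DHRS3, CD300A and BNIP3 lie at 0 in RS4:11 and far below 0 in SEM-K2, and ERFE and RNF175 the reverse.

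The test of the difference between the lines called 24 genes (0.227%), 17 with a lower and 7 with a higher set difference in SEM-K2. Of the 24 genes, 9 were below 4 on all 6 RS4:11 arrays and 5 on all 6 SEM-K2 arrays. BNIP3, a mitophagy receptor and hypoxia gene like BNIP3L, had 10.75, 11.37 and 11.15 in SEM-K2 in set 1 and 9.04, 9.70 and 9.43 in set 2, while all RS4:11 arrays lay between 2.36 and 2.82. It differed by -1.70 in SEM-K2 (limma adjusted p = 0.000685 for that line) and 0.16 in RS4:11, where it could not fall further, so no p is given for the difference between the lines. PLOD2, which modifies collagen and is another hypoxia gene, behaved alike, with -1.60 in SEM-K2 and levels under 3 in RS4:11, as did BHLHE40, a repressor induced by hypoxia, with -1.93.

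NDRG1, a stress and hypoxia gene, was above the floor in both lines. It had 9.78, 10.31 and 10.43 in SEM-K2 in set 1 and 8.06, 8.79 and 8.96 in set 2, against 6.37, 6.78 and 6.37 and then 6.28, 6.65 and 6.16 in RS4:11. The sets were apart in SEM-K2 (-1.57) and overlapped in RS4:11 (-0.14), with a limma adjusted p of 0.0183 for the difference between lines. In RS4:11 ERFE, whose hormone product lowers hepcidin, differed by -1.77 with SEM-K2 under the floor throughout, and RNF175 by -1.90 in RS4:11 and -0.23 in SEM-K2. ERFE was also under the floor on the RS4:11 arrays of set 2, at 3.20, 3.70 and 3.26. Its difference is thus partly against background.

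DHRS3, a retinal reductase, had 6.07, 6.67 and 6.75 in SEM-K2 in set 1 and 3.44, 4.70 and 4.07 in set 2, with all RS4:11 arrays under the floor. Its difference of -2.43 in SEM-K2 rests in part on a vehicle array under the floor. CD300A, an inhibitory receptor of leukocytes, had 8.51, 10.04 and 9.93 in SEM-K2 in set 1 and 5.92, 8.11 and 8.17 in set 2, a difference of -2.09. In RS4:11 it had 2.87, 2.96 and 3.93, then 2.93, 2.95 and 4.03, so it was at the floor there and could hardly fall. GPR146 had 5.49, 5.33 and 5.66 in SEM-K2 in set 1 and was under the floor on all RS4:11 arrays and all SEM-K2 arrays of set 2, so its differences of -2.68 and -0.68 are against background. FERMT1 differed by 1.46 in SEM-K2 with RS4:11 under the floor, and RASGEF1A by -1.34 in RS4:11 with SEM-K2 under it. RASGEF1A was also under the floor on the RS4:11 arrays of set 2, so its difference is partly against background. NAV2 differed by -0.41 in RS4:11 and by 1.12 in SEM-K2, where its set 1 arrays were under the floor. TCL1A, a coactivator of AKT and above the floor on all arrays, differed by 0.62 in RS4:11 and -0.80 in SEM-K2. TCL1A had 9.03, 8.93 and 8.99, then 9.76, 9.69 and 9.38 in RS4:11, and 11.24, 10.56 and 10.59, then 10.35, 9.74 and 9.88 in SEM-K2. The count of 24 was 0 without any 1 RS4:11 array, 1 without a SEM-K2 EC50 array, 9 without a SEM-K2 3xEC50 array and 12 without a SEM-K2 vehicle array, and 0 with no filter on low values. TCL1A, PLOD2, NDRG1, XNDC1N, GALNT6, KMT2A, AFF1 and the list members beyond the 3 with the smallest p in each list were chosen after their values were seen.

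**Figure D4:**
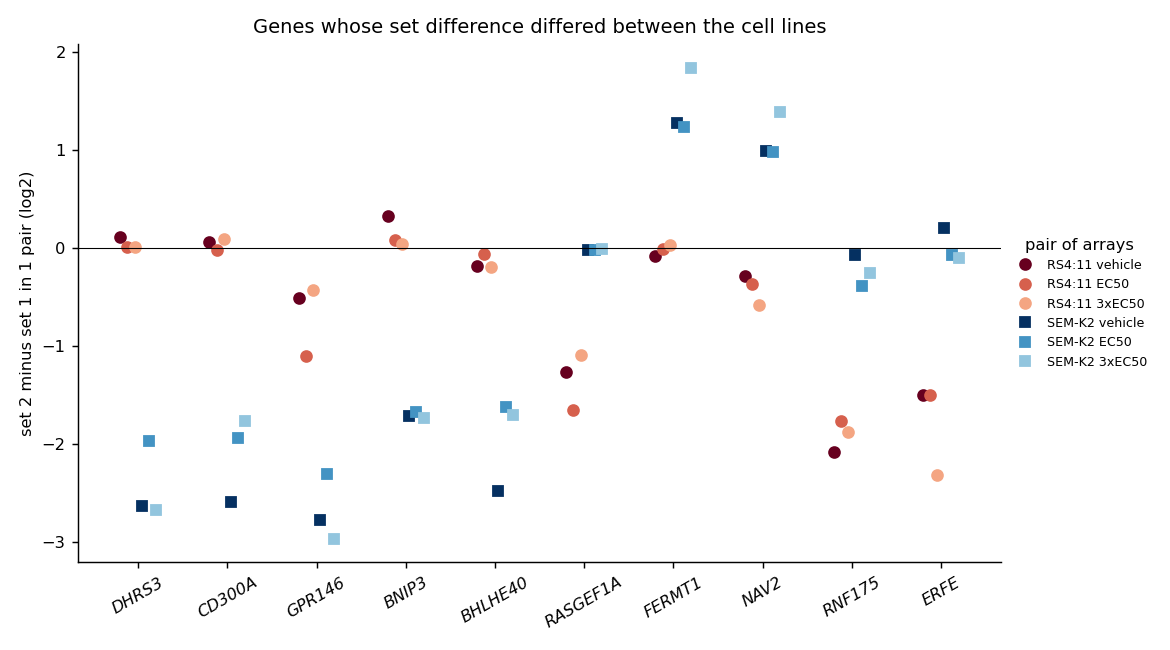
Set 2 minus set 1 (y axis, log2) in each pair for the 10 genes with the largest difference between lines, RS4:11 as circles and SEM-K2 as squares. In DHRS3, CD300A and BNIP3 the 3 SEM-K2 pairs lie between -2.67 and -1.67 with the RS4:11 pairs near 0, and in RNF175 and ERFE the RS4:11 pairs lie between -2.32 and -1.50.

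Whether the set difference was unequal in vehicle and treated cells was tested over both lines, and limma called 0 genes, with 888 at an unadjusted p under 0.05 and a smallest adjusted p of 0.462. A miss of the threshold does not show that the differences were equal. The set also bears on the drug comparisons. Against vehicle, without a term for the set, limma called 0 genes in RS4:11 at either dose (444 and 518 at an unadjusted p under 0.05), 18 in SEM-K2 at EC50 and 87 in SEM-K2 at 3xEC50. With the replicate number as a block these became 0 and 0 (843 and 1031 at an unadjusted p under 0.05), 46 and 220 (2.08%), and all 18 and all 87 genes were kept. The median residual SD was 0.22 without the block and 0.18 with it. Of the 220 genes 61 (27.7%, against 12.3% of all genes) were also called between sets, which is 4.69% of the 1300. The comparisons use the same arrays and the same fit, with 1 residual spread per gene, so these calls are not independent.

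Controls for steps after cell culture also differed between the sets. Poly(A) controls are bacterial transcripts with a poly(A) tail that are added to RNA before labelling, and their mean level was 8.96, 9.31 and 9.001 in RS4:11 and 8.86, 8.88 and 9.30 in SEM-K2 in set 1. In set 2 it was 7.15, 4.82 and 6.68 in RS4:11 and 7.97, 8.63 and 3.79 in SEM-K2. All set 2 arrays were lower, most in SEM-K2 3xEC50 (-5.52) and RS4:11 EC50 (-4.49) and least in SEM-K2 EC50 (-0.25). The mean difference was -2.55 ± 2.06 (SD of 6 pairs). The exact two-sided permutation test, which swaps the set within pairs in 64 ways, gave p = 0.0313, the smallest it can give, and 0.0625 when adjusted over 8 measures. Ribosomal RNA signal was lower in set 2 in all 6 pairs, with mean differences of -1.39 for 18S and -1.83 for 28S (exact permutation p = 0.0313 each, adjusted 0.0625). The share of probe sets above the floor was lower in all 6 pairs, at 42.5% against 42.1% on average (exact permutation p = 0.0313, adjusted 0.0625). Hybridisation controls, added after labelling, differed by 0.28 (exact permutation p = 0.0938, adjusted 0.15). The 3′ minus 5′ difference of ACTB, a sign of RNA length, lay between 0.87 and 1.23 on 11 arrays and was 1.97 on SEM-K2 3xEC50 of set 2. That of GAPDH lay between 0.08 and 0.30 on 11 arrays and was 0.61 on that array.

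Some genes ran with these controls from pair to pair and others did not. MALAT1, an abundant nuclear RNA, differed by -1.22, -3.03 and -1.69 in RS4:11 and by -0.44, -0.42 and -3.03 in SEM-K2, largest in the same 2 pairs as the poly(A) controls. PSENEN, a subunit of gamma-secretase, was largest in them too, at -2.17 in RS4:11 EC50 and -3.60 in SEM-K2 3xEC50, as was BRWD3, at -2.03 and -2.79, where the other probe set of BRWD3 had the opposite sign. In the SEM-K2 EC50 pair, in which the controls differed by only -0.25, TMEM45A differed by -3.24, PFKFB4 by -2.12, P4HA1 by -1.07, BNIP3L by -1.42 and ALDOC by -1.96. Their means over the 6 pairs were -3.51, -2.65, -1.02, -1.58 and -1.55. In that pair MALAT1 differed by -0.42, KIF20A by -0.34, CDC45 by 0.34 and CAD by 0.54.

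With the control level of each array as a covariate, chosen after seeing the data, 3 genes were called between sets, TMEM45A (-3.62), TNS1 (-2.31) and GALNT6 (-1.24), and 0 genes were called for the control level itself (869 at an unadjusted p under 0.05). The set accounts for 64.7% of the variance of the control level within groups, and the median SE rose from 0.10 to 0.16. PFKFB4 then differed by -2.90, P4HA1 by -1.09, BNIP3L by -1.44 and KIF20A by -0.79, each of about the size without the covariate and none called, while CDC45 differed by 0.42, CAD by 0.47 and MALAT1 by -0.20. The hypoxia list had a median of -0.74, the mitosis list -0.54, the S phase list 0.20, ribosome biogenesis 0.21 and proteasome subunits 0.10. Without the RS4:11 EC50 and SEM-K2 3xEC50 pairs, a choice also made after seeing the data, 106 genes were called, with 11 hypoxia genes, 1 mitotic gene, 0 S phase genes, 1 ribosome biogenesis gene, 1 proteasome gene and 2 quiescence genes among them. Over all calls, 107 of the 486 genes higher in set 2 (22.0%, against 6.25% of all genes) had pair differences that correlated with those of the controls at r below -0.8. Of the 814 genes lower in set 2, 52 (6.39%, against 2.26%) correlated at r above 0.8. These are descriptions over 6 pairs. Among the genes higher in set 2, CCNE1 differed by 0.39 with the covariate against 0.79 without it.

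**Figure D5:**
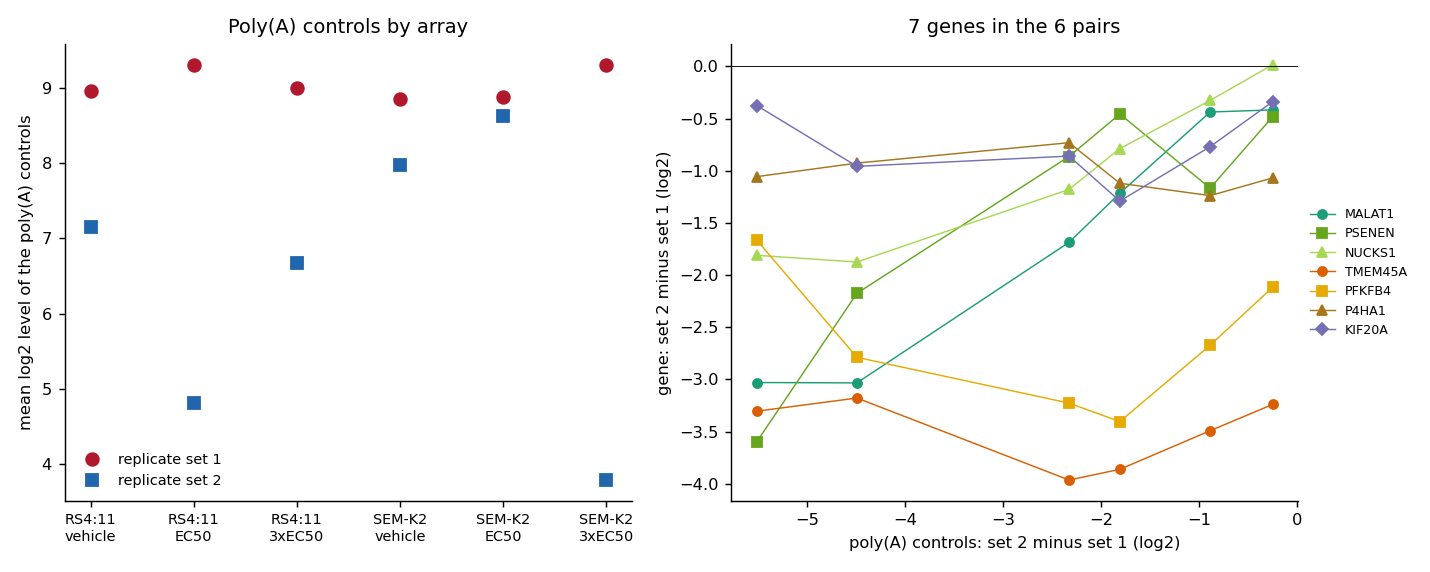
Left, mean log2 level of the poly(A) controls (y axis) on the 12 arrays by group (x axis), set 1 as circles and set 2 as squares. Right, set 2 minus set 1 of 7 genes (y axis) against that of the controls (x axis) in the 6 pairs, joined per gene; MALAT1 runs from -0.42 where the controls differ by -0.25 to -3.03 where they differ by -5.52, while TMEM45A stays between -3.96 and -3.18.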

How the data were processed

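RNA of 12 samples was measured on Affymetrix U133 Plus 2 arrays. The authors' deposited values, read here as log2 from their range since no scale is stated, were made with GCRMA, per the submitters' processing notes (version not given in the sources used here). They run from 0.636 to 16.2 with array medians between 3.13 and 3.16. Of 54675 probe sets 62 are controls. 41097 have 1 gene symbol, 1801 several (not named) and 11777 none listed, and 41043 matched RefSeq by Entrez identifier. The probe set with the highest mean stood for a gene. Of 1193 other probe sets of called genes, 967 (81.1%) had the same sign, against 64.7% over all genes. Some of them gave much smaller differences.

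Genes above 4 on at least 2 arrays (10561 of 19775) were fitted with lmFit and eBayes in limma 3.58.1 (R 4.3.3, data.table package 1.17.8), which was tested on simulated data. The model held 6 group means and the set, a set term per line, or set by treatment, with p-values adjusted by Benjamini-Hochberg. The number of arrays limits the precision. Named genes are, among called genes with 6 pairs alike and a mean above 4 in a set, the 15 largest differences each way, ranked with set means under 4 raised to 4 (which leaves out GPR146, at -1.68 or -0.44 so raised), up to 3 called members per list by smallest p, and the 5 largest line differences each way. The members and 35 lists were chosen with earlier results of these data known, so no list count is independent evidence.

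Whether replicate numbers pair the arrays was checked on deviations from group means, which correlated between 0.19 and 0.60 (median 0.35) over the 30 combinations of arrays with the same number. Within a group these deviations are mirror images fixed by the pair difference, so either set gives the same values. They are the correlations of pair differences given in the Results and restate the set difference, so they are not a separate check of pairing. All were positive, so arrays with the same number tended to deviate alike, over genes that are not independent. Drug counts are given without the block and with it. Alternatives were another summary of probe sets, other filters, eBayes with trend, centring, fewer arrays and a covariate. Promoter and microRNA sequences are RefSeq's (GRCh38.p14). Scanner files were not used here.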

Additional observations from a re-analysis of the deposited data

Results flagged for a closer look

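The 6 pair differences of 106 measures, which are the named genes and 8 control measures, were examined for 1 pair apart from the other 5 by more than Dixon's critical value. Chance gives this in about 5% of cases, and 5 of the 106 did so. In the SEM-K2 3xEC50 pair FARSB differed by 1.04 against 0.54 to 0.64 in the others, AEN by 1.21 against 0.41 to 0.70, and the ACTB 3′ minus 5′ measure by 0.87 against -0.15 to 0.14. In the SEM-K2 vehicle pair CD9 differed by -1.01 against -0.52 to -0.24. In the RS4:11 vehicle pair 18S rRNA differed by -3.57 against -1.30 to -0.55.

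For 10 named genes limma's interaction test called a set difference unequal in the lines. In 7 of them 1 line was under the floor on all its arrays, RS4:11 for DHRS3, GPR146, BNIP3, BHLHE40 and FERMT1 and SEM-K2 for ERFE and RASGEF1A. Where the other line fell, that line could hardly show a fall, so the test says little beyond which line has the gene. Much the same holds for CD300A, which passed 4 in RS4:11 only at 3xEC50 in set 2, at 4.03. GPR146 still differed by -0.68 in RS4:11, against background. FERMT1 rose by 1.46 in SEM-K2, and the floor did not prevent a rise in RS4:11, where it differed by -0.02. SEM-K2 minus RS4:11 was -2.47 for DHRS3, -2.14 for CD300A, -2.00 for GPR146, -1.86 for BNIP3 and -1.79 for BHLHE40. It was 1.78 for ERFE, 1.67 for RNF175, 1.53 for NAV2, 1.47 for FERMT1 and 1.32 for RASGEF1A.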

How the results depend on the processing

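The count of 1300 genes between sets was 528 with no filter on low values, 8 with only the 4 vehicle arrays, 622 with only the 3 RS4:11 pairs, 15 with only the 3 SEM-K2 pairs, 106 without the RS4:11 EC50 and SEM-K2 3xEC50 pairs and 3 with the poly(A) control level as a covariate. Without 1 array it ran from 463 to 1281. Leaving out either array of a pair gives the same set term, since its partner then carries no information on the set. All 1300 genes kept their sign in every setting on the same probe sets but the covariate, where 1298 did. These genes, with the named ones among them, were chosen on the same pairs, so kept signs are not separate support. The RS4:11 count of 732 was 175 with no filter and 1247 with trend and robust eBayes (35 to 899 without 1 array), and the SEM-K2 count of 396 was 93 and 736 (120 to 248). The count of 24 for the lines was 0 with no filter (0 to 12 without 1 array), and the treatment count of 0 was 2 with no filter (0 in each fit without 1 array). The replicate block gave 46 and 220 genes in SEM-K2 at EC50 and 3xEC50 in place of 18 and 87, and changed neither count of 0 in RS4:11. The mean of all probe sets gave 1, 1, 11 and 44 in RS4:11 EC50 and 3xEC50 and SEM-K2 EC50 and 3xEC50, and no filter gave 2 in RS4:11 EC50 and 8 in SEM-K2 EC50. Without 1 array these 4 counts ran from 0 to 3, 0 to 1, 3 to 17 and 14 to 169. VARS1 (-0.17) and XBP1 (0.033) reversed with the mean of all probe sets, and 13 of 86 named genes lost their call there. Of 88 named genes, between 8 (without a SEM-K2 vehicle array) and 29 (without an RS4:11 vehicle array) lost their call, and none changed sign, without 1 array. The number of arrays limits all counts, and beyond fewer arrays or genes the causes were not tested.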
